A study of Mus musculus with 8 samples.

Results

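Aminoacyl-tRNA synthetases join each amino acid to its transfer RNA before protein synthesis. The genes described here were 36 synthetase genes of the 55487 genes in the count table, 20 of the cytosolic and 16 of the mitochondrial enzymes. They were taken by gene symbol. The family was selected on the counts of Vars2, the gene of the mitochondrial valyl-tRNA synthetase, which had differed between the groups in these same libraries. The difference in Vars2 is therefore a description: no p-value or interval is given for it, and it supports nothing where it enters a value over the family. All 36 genes passed the filter on low counts, as did 18884 genes in all.

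RNA sequencing covered 8 mouse samples whose titles name pro-B cells, precursors committed to the B lineage that are rearranging their immunoglobulin heavy chain genes. The genotype label was CD25_KO for 4 of them and WT for the other 4, replicates 1 to 4 in each, and no treatment was named for either group. CD25, encoded by Il2ra, is the subunit that gives the interleukin-2 receptor its high affinity. The strain, the age of the mice, the kind of deletion and the way the cells were sorted are not given in the sources used here.

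Counts per library summed to between 43974037 and 57988772. Il2ra was measured at 200.2, 216, 216 and 140 CPM (counts scaled to library size) in wild type libraries 1 to 4 and at 145, 168, 244 and 168 CPM in the CD25_KO-labelled libraries. Its log2 fold change, labelled knockout over wild type, was -0.09 ± 0.19 (SE), so Il2ra does not check the labels in either direction. Counts over a whole gene can include transcripts of a deleted allele. The 12 pro-B markers, among them Pax5 and Rag1, summed to 8673 to 10165 CPM in wild type, set against 8816 to 10351 CPM in the CD25_KO-labelled libraries, and none was at 0 in any library. The lowest was Kit, at 0.896 to 3.20 CPM in wild type and 0.701 to 1.69 CPM in the CD25_KO-labelled libraries. The highest was Cd79b, at 3006.4 to 3688.5 CPM and 3073.5 to 3585.8 CPM. The stage named in the titles was not tested. Markers of other cell states and cell types also lay at other levels in the 2 groups, though none was called by edgeR. The 12 division genes were all lower in the CD25_KO-labelled libraries, with sums of 2862 to 3272 CPM in wild type against 1170 to 2739 CPM. Of the erythroid markers 8 of 9 tested were lower, with sums of 2902 to 8646 CPM against 269 to 2285 CPM. Natural killer markers were lower for 8 of 9, with sums of 33.04 to 46.6 CPM against 8.70 to 29.99 CPM. Neutrophil markers were lower for 10 of 10, with sums of 252 to 551 CPM against 117 to 475 CPM, and Mpo and Ctsg were at 0 in labelled knockout library 3. Monocyte and macrophage markers were lower for 7 of 7 tested, with sums of 124 to 219 CPM against 37.5 to 158 CPM, and Cx3cr1 was at 0 in labelled knockout library 3. The immediate early genes were higher for 10 of 10 tested. Labelled knockout libraries 1 and 3 stood apart in all of these lists. They had the lowest sums of the 8 libraries for division (1701 and 1170 CPM), erythroid (269 and 894 CPM), natural killer (12.6 and 8.70 CPM), neutrophil (171 and 117 CPM) and monocyte markers (86.8 and 37.5 CPM), and the highest for immediate early genes (431 and 599 CPM). Y-linked genes were above 5 CPM in wild type library 2 and in labelled knockout libraries 2 and 4. Xist, expressed from the inactive X chromosome, was at 60.0 CPM in wild type library 2, against 0.348 and 1.12 CPM in labelled knockout libraries 2 and 4. It was at 370 to 482 CPM in the other libraries. In those the Y-linked genes summed to 0 to 0.07 CPM, except for 2.73 CPM in wild type library 3. Wild type library 2 thus held Xist together with Y-linked transcripts, and the part of this in its synthetase values was not tested. The part of other cells and of division in the synthetase values below was not tested. In such bulk samples, fewer cells of a type and less RNA per cell cannot be told apart.

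Each synthetase is named for the letter of its amino acid, and a 2 at the end of the symbol marks the mitochondrial enzyme, which is encoded in the nucleus and imported. Most amino acids have a cytosolic and a mitochondrial enzyme from separate genes, while Gars and Kars are known to supply both compartments. Several cytosolic enzymes sit in a multi-synthetase complex held together by scaffold proteins. Many cytosolic synthetase genes are known targets of Atf4, the transcription factor of the amino acid response. Lymphocyte precursors that divide make much protein, and the synthetases are expressed in every cell.

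Levels of different genes were compared as TPM, counts per annotated exon length scaled to a common library total. The cytosolic genes lay higher than the mitochondrial ones. Mean TPM over the 8 libraries ran from 12.7 for Gars, the glycyl-tRNA synthetase gene, to 125 for Vars, the cytosolic valyl enzyme, with a median of 50.6 over the 20 cytosolic genes. Among the 16 mitochondrial genes it ran from 1.98 for Ears2, the glutamyl enzyme, to 93.3 for Lars2, the leucyl enzyme, with a median of 6.96. Behind Vars came Hars (103 TPM), Farsb (99.4 TPM), Dars (94.1 TPM) and Lars2. Vars2 stood at rank 29 of 36 with 6.11 ± 2.34 TPM (SD, n = 8). No gene in this order was separated from its neighbour above by the ranges of their libraries, so single steps of the order do not exceed the spread.

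**Figure D1:**
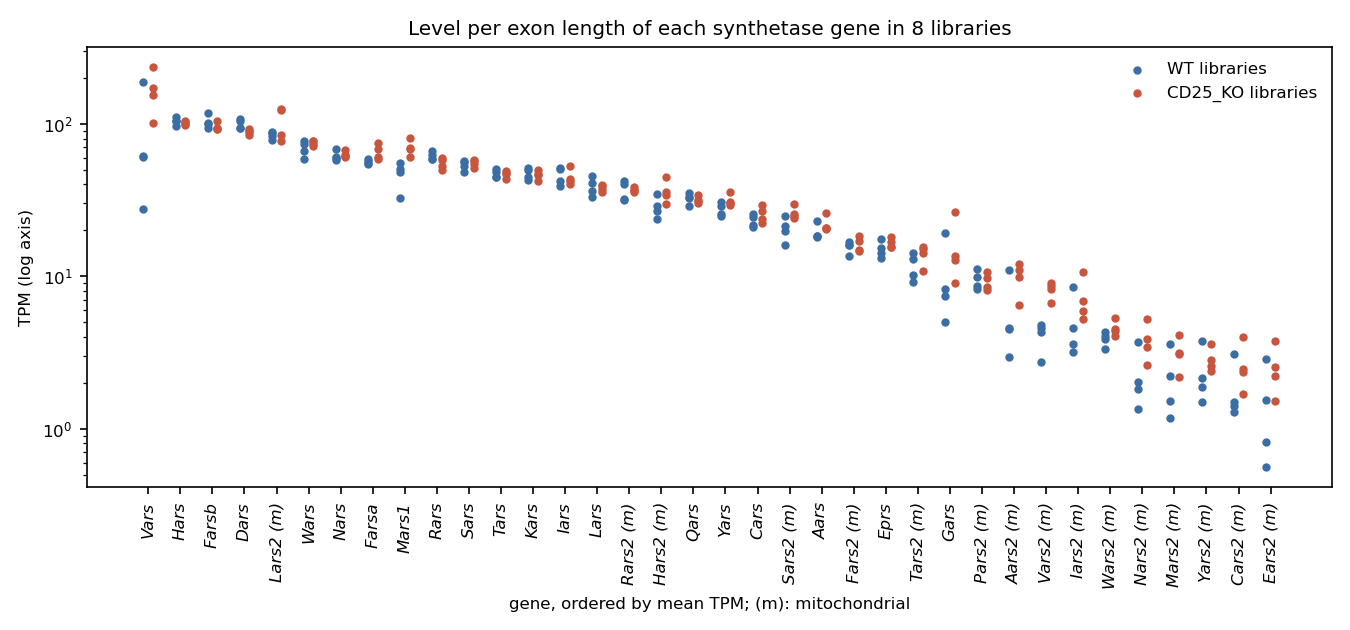
Level of each of the 36 synthetase genes in TPM on a log axis, ordered by mean, with 1 point per library (blue, wild type; red, labelled CD25_KO) and mitochondrial genes marked (m). Mean levels run from 125 TPM for Vars to 1.98 TPM for Ears2, and Lars2 is the only mitochondrial gene among the first 15.

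Phenylalanine (Farsa, Farsb and Fars2), glutamate (Eprs and Ears2) and proline (Eprs and Pars2) have genes in both compartments but were not compared as pairs. Of the other 13 amino acids with a cytosolic and a mitochondrial gene among the 36, 12 had the higher TPM in the cytosolic gene in all 8 libraries. Among those 12 the ratio of the pair was smallest for arginine, Rars over Rars2, at 1.60 ± 0.216 (SD, n = 8), and greatest for asparagine, Nars over Nars2, at 24.9 ± 12.4. For valine, Vars stood above Vars2 by a ratio of 20.4 ± 11.5, between 10.03 and 40.9 across libraries. Leucine was the exception. Lars was below Lars2 in 8 of 8 libraries, with a ratio of 0.426 ± 0.0853. Summed over genes, the cytosolic synthetases came to 1046 ± 43.3 TPM in wild type and 1152 ± 79.1 TPM in the CD25_KO-labelled libraries, and the mitochondrial ones to 235 ± 12.2 and 285 ± 42.3 TPM (SD, n = 4). These sums overlapped between the groups. TPM rest on the annotated exon length, which includes long untranslated exons for some genes, so ratios between genes carry that uncertainty.

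Vars2 (ENSMUSG00000038838.15, GRCm38 chromosome 17, 35655634 to 35667592, minus strand) encodes the enzyme that charges the mitochondrial valine tRNA. It was measured at 11.97, 7.05, 11.9 and 12.5 CPM in wild type libraries 1 to 4 and at 16.2, 22.3, 20.6 and 20.8 CPM in labelled knockout libraries 1 to 4. Every library labelled knockout lay above every wild type library, the lowest labelled knockout value belonging to library 1 and the lowest of all to wild type library 2. The means were 10.8 ± 2.54 CPM in wild type against 20.01 ± 2.62 CPM in the CD25_KO-labelled libraries (SD, n = 4), and the log2 fold change was 0.88. An antisense gene, Gm20483, covers 465 exon bases of Vars2 on the other strand, 8.52% of them, and had 0 counts in all libraries. Since no strand option was recorded, this 0 does not show that antisense transcripts were absent from the counts of Vars2.

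Vars (ENSMUSG00000007029.16, GRCm38 chromosome 17, 35000987 to 35016322, plus strand) is its cytosolic partner, a single enzyme that supplies valine to all cytosolic translation. Wild type libraries 1 to 4 gave 159, 72.7, 172 and 525 CPM, and labelled knockout libraries 1 to 4 gave 590, 269, 406 and 403 CPM. Wild type library 4 lay within the range of the libraries labelled knockout, and the other 3 wild type libraries lay below that range. Means were 232 ± 200.1 and 417 ± 132 CPM (SD, n = 4), and the log2 fold change of 0.85 ± 0.51 (SE) had a 95% interval of -0.30 to 1.99. The size was thus close to that of Vars2, but the groups overlapped for Vars and its interval held 0. A processed pseudogene of Vars, Gm14780, shares 333 bases at 90.4% identity and held 62 counts in all libraries together, against 134052 for Vars.

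**Figure D2:**
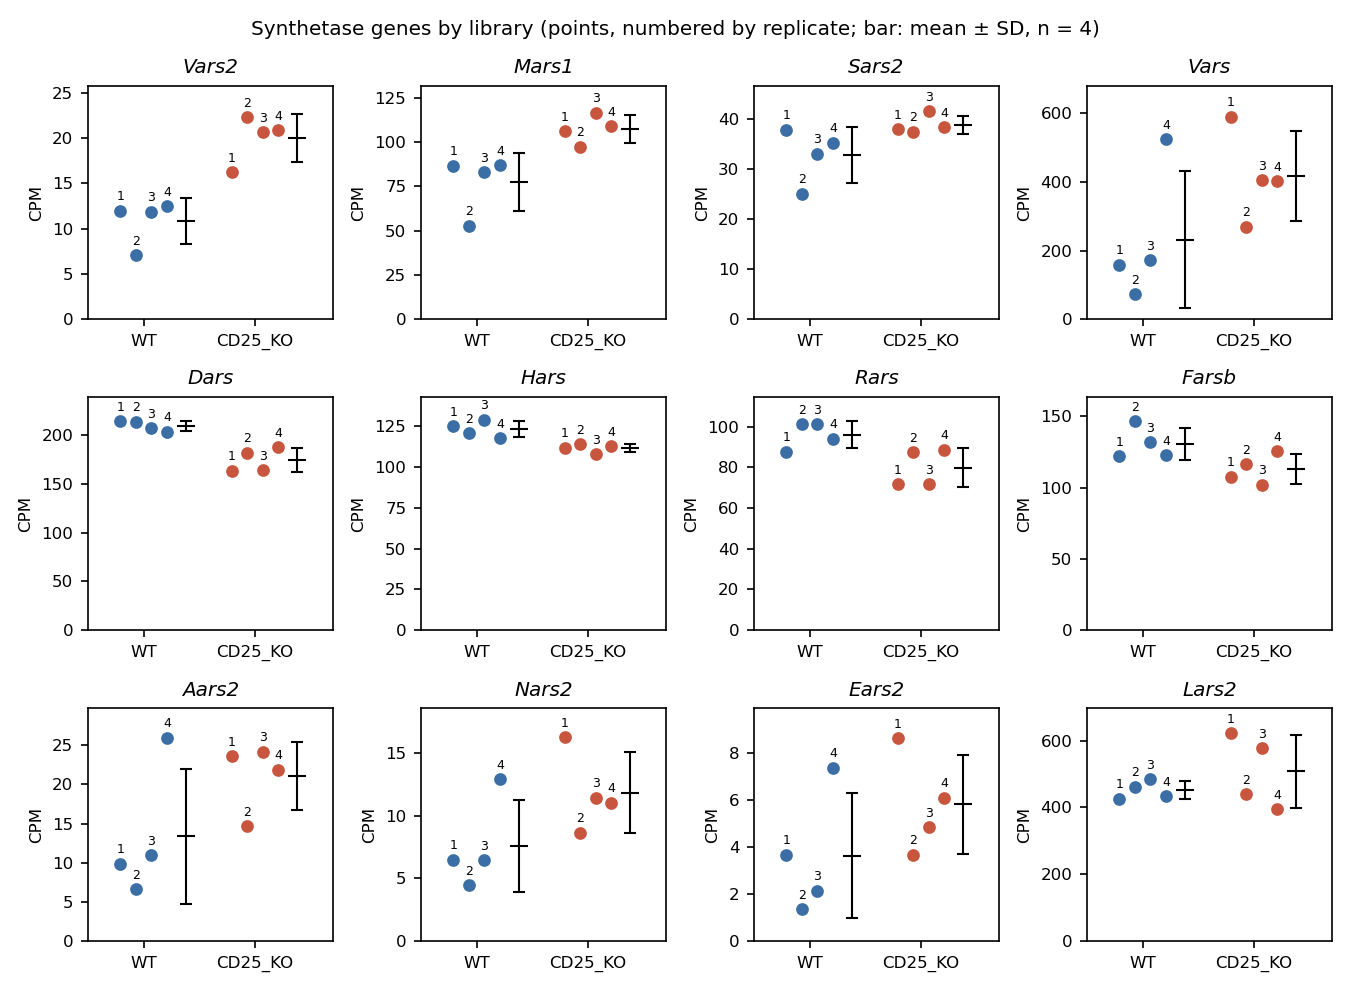
CPM of 12 synthetase genes in each library (points numbered by replicate; blue, wild type; red, labelled CD25_KO; bars, mean ± SD, n = 4). Vars2 and Mars1 are higher in every library labelled knockout, Dars and Hars are lower in every such library, Vars, Nars2 and Ears2 have wild type library 4 among the labelled knockout values, and Aars2 has it above them.

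Over all 36 genes, 22 fold changes were above 0 and 14 below, with a median log2 fold change of 0.08, beside 0.003 over the 18884 tested genes, of which 50.4% were above 0. None of the 35 genes other than Vars2 passed an adjusted p of 0.05 in edgeR (quasi-likelihood F test, p-values adjusted after Benjamini and Hochberg over all tested genes), and the background was 0% of all tested genes (smallest adjusted p 0.391). At an unadjusted p under 0.05, 1 of these 35 was higher (Mars1), where 5.53% of all tested genes were, and 2 were lower (Dars and Rars), where 7.11% were. Among the 35 the groups did not overlap for Mars1, which was higher, beside 2.62% of all tested genes, and for Dars and Hars, which were lower, beside 4.17%. Because the contrast was used to pick the family, nothing is read from these counts. DESeq2's Wald test called 0 of the 35, where it called 0.0291% of all genes it tested, and limma-voom called 0 of the 35 and 0% of all. The 95% interval of the fold change stayed within 2-fold either way for 27 of the 35 genes, 18 of the 20 cytosolic and 9 of the 15 mitochondrial ones. Without wild type library 4, edgeR called 2 of the 36, Vars (log2 fold change 1.63) and Aars2 (1.21), both higher, among 363 of all genes (1.86%). With a term for Y-linked expression and without that library it called 11, among 3112 of all genes (16%). Vars2 was among the 11, and as the gene that picked the family it lends this count no support.

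**Figure D3:**
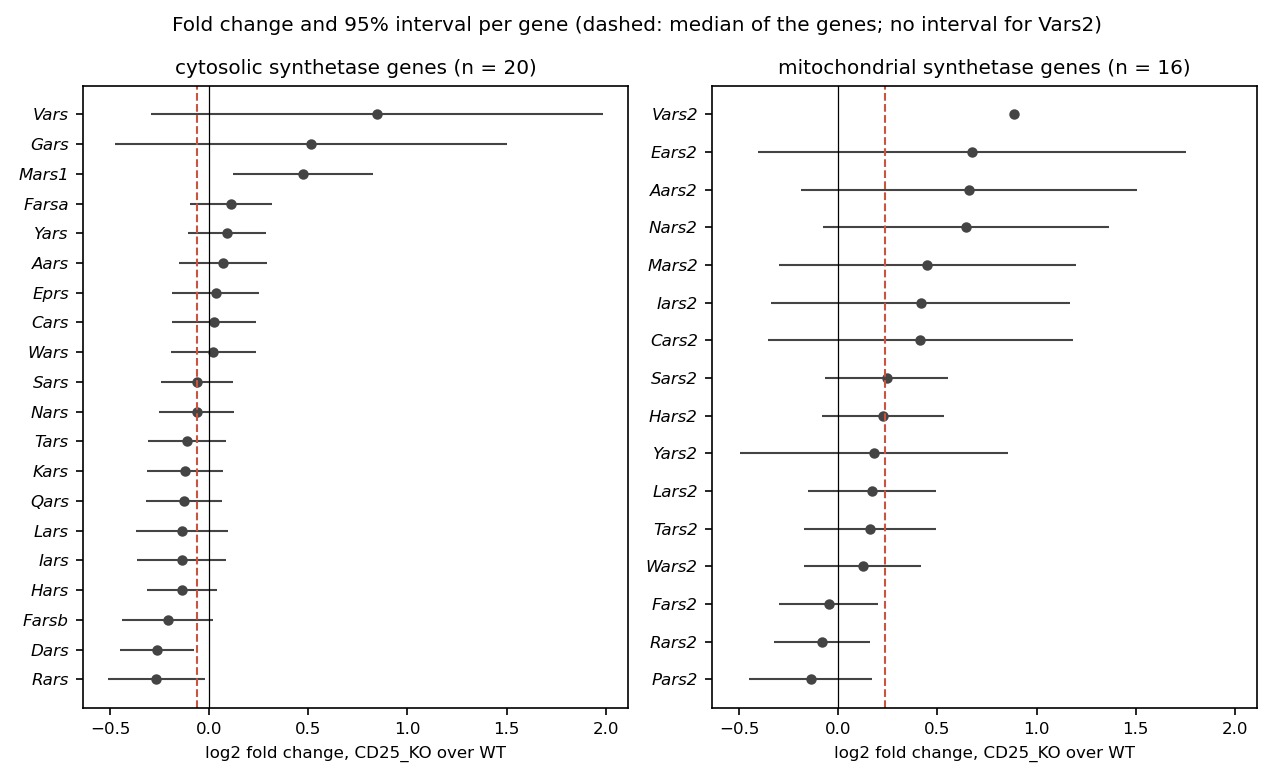
Log2 fold change, labelled CD25_KO over WT, of each synthetase gene (points) with its 95% interval (bars, not drawn for Vars2), cytosolic genes on the left and mitochondrial genes on the right, with the median of each panel as a dashed line. The medians are -0.06 and 0.23, and the widest intervals belong to Vars, Gars and Ears2.

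Fold changes of the cytosolic genes lay on both sides of 0. Their median log2 fold change was -0.06, with 9 above and 11 below 0, and it was -0.002 without wild type library 2 and -0.02 without labelled knockout library 2. Mars1 encodes the methionyl-tRNA synthetase, which charges initiator and elongator tRNA alike. It stood at 86.7, 52.8, 82.9 and 86.8 CPM in wild type libraries 1 to 4 and at 106, 97.5, 117 and 109 CPM in those labelled knockout. All 4 labelled knockout values were above the wild type values, and wild type library 2 was far below the other 3. The log2 fold change was 0.47 ± 0.16 (SE). Exons of Mars1 overlap Ddit3 on the opposite strand by 68 bases, 1.99% of its exons.

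Dars, the aspartyl-tRNA synthetase gene, gave 214, 214, 207 and 204 CPM in wild type against 163, 182, 164 and 188 CPM in the CD25_KO-labelled libraries. The groups did not overlap, and the log2 fold change was -0.27 ± 0.08 (SE). Rars, for arginine, gave 87.7, 101, 101 and 94.1 CPM against 71.6, 87.5, 71.6 and 88.6 CPM, with a log2 fold change of -0.27 ± 0.11 (SE). Labelled knockout libraries 1 and 3, the 2 that stood apart in division, in markers of other cells and in immediate early genes, were the lowest for Dars and Rars, and labelled knockout library 4 lay above wild type library 1 for Rars. Without those 2 libraries the log2 fold change of Rars was -0.15.

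Farsb is the beta subunit of the phenylalanyl-tRNA synthetase, which works as a tetramer with Farsa. It gave 122, 147, 132 and 123 CPM in wild type against 108, 117, 102 and 126 CPM in the CD25_KO-labelled libraries, a log2 fold change of -0.21 ± 0.10 (SE), while Farsa had 0.11 ± 0.09. The subunits thus lay on opposite sides of 0, and the interval of each held 0. Without wild type library 2 the value of Farsb was -0.12. Sgpp2 covers 9.47% of the exon bases of Farsb on the opposite strand. Hars, the histidyl enzyme, gave 125, 121, 129 and 118 CPM against 112, 114, 108 and 113 CPM, a small difference without overlap and a log2 fold change of -0.14 ± 0.08 (SE). Hars and Hars2 lie head to head and share 195 exon bases on opposite strands, 7.97% of those of Hars.

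Gars, for glycine, was the cytosolic gene of lowest TPM and gave 11.9, 7.35, 11.6 and 29.7 CPM in wild type against 36.7, 13.2, 17.9 and 18.5 CPM in the CD25_KO-labelled libraries. Wild type library 4 exceeded 3 of the 4 labelled knockout libraries, and the log2 fold change was 0.51 ± 0.44 (SE). It was 1.07 without that library, 0.30 without wild type library 2 and 0.12 without labelled knockout library 1. For the 13 other cytosolic genes, Farsa, Aars, Cars, Eprs, Iars, Kars, Lars, Nars, Qars, Sars, Tars, Wars and Yars, the log2 fold changes ran from -0.14 to 0.11. Each of their 95% intervals held 0. Upper quartile scaling lowered all values, taking Aars, Cars, Eprs, Wars and Yars to the other side of 0.

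Of the mitochondrial genes 13 of 16 had log2 fold changes above 0, with a median of 0.23. The median was 0.41 without wild type library 4, 0.14 without labelled knockout library 1 and 0.09 without labelled knockout libraries 1 and 3. No difference between the compartments was tested. Leaving out Vars2, 12 of 15 were above 0 and the median was 0.22. Nars2, the asparaginyl enzyme of mitochondria, gave 6.47, 4.46, 6.43 and 12.9 CPM in wild type against 16.3, 8.65, 11.4 and 11.01 CPM in the CD25_KO-labelled libraries. Only wild type library 4 lay among the labelled knockout values, and the log2 fold change was 0.64 ± 0.32 (SE), or 1.03 without that library. C230038L03Rik covers 4.08% of its exon bases on the opposite strand. Sars2, for serine, gave 37.8, 25.002, 33.03 and 35.3 CPM against 37.9, 37.4, 41.5 and 38.3 CPM, and the log2 fold change was 0.24 ± 0.14 (SE). It turned to -0.12 once the trend with GC content was removed and wild type library 4 left out.

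Aars2, the alanyl enzyme, gave 9.86, 6.61, 10.9 and 25.98 CPM in wild type against 23.6, 14.7, 24.1 and 21.8 CPM in the CD25_KO-labelled libraries. Wild type library 4 was the highest of all 8, the other 3 wild type libraries the lowest, and the log2 fold change was 0.66 ± 0.38 (SE). Ears2, which attaches glutamate, stood at a low level, with 3.67, 1.36, 2.14 and 7.39 CPM against 8.64, 3.68, 4.85 and 6.11 CPM and a log2 fold change of 0.68 ± 0.48 (SE). That value was 1.29 without wild type library 4 and 0.42 without either wild type library 2 or labelled knockout library 1. Its wild type library 4 exceeded 3 labelled knockout libraries, and wild type library 1 nearly equalled labelled knockout library 2. An overlap with Ubfd1 on the opposite strand covers 1.73% of the exon bases of Ears2. Hars2 gave 67.96, 48.4, 62.4 and 57.1 CPM against 68.03, 68.6, 80.4 and 58.6 CPM, and the log2 fold change was 0.23 ± 0.14 (SE). Its groups overlapped, its wild type library 2 was the lowest of the 8, and the value was 0.14 without labelled knockout library 3.

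Lars2, the most abundant mitochondrial synthetase transcript, gave 426, 462, 485 and 434 CPM in wild type against 623, 439, 577 and 395 CPM in the CD25_KO-labelled libraries. Labelled knockout libraries 1 and 3 were the highest and library 4 the lowest of the 8. The log2 fold change was 0.17 ± 0.14 (SE), from 0.04 without library 1 to 0.27 without library 2 or library 4 when single libraries labelled knockout were left out, and -0.14 without libraries 1 and 3. Fars2, Rars2 and Pars2 were the 3 genes below 0, at -0.05, -0.08 and -0.14. The remaining Cars2, Iars2, Mars2, Tars2, Wars2 and Yars2 lay between 0.12 and 0.45, each with an interval that held 0. Iars2 shares 2034 exon bases, 22.9%, with Rab3gap2 on the opposite strand, and since no strand option was recorded its counts are uncertain.

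The spread between libraries of 1 group was itself uneven across the family. Among the wild type libraries, 9 of the 36 genes had an SD above 0.5 on the log2 CPM scale: the cytosolic Vars and Gars and the mitochondrial Aars2, Cars2, Ears2, Iars2, Mars2, Nars2 and Yars2. Over all 8 libraries their highest CPM was 2.65 to 8.12 times their lowest, with Vars at the top. All 9 were lowest in wild type library 2 and highest in wild type library 4 among the wild type libraries, and 8 of the 9 were highest in library 1 among those labelled knockout. This order was not particular to the family. Of 9529 protein-coding genes with at least 3 CPM, 1620 (17%) passed the same SD, and 1420 of those had wild type library 2 lowest and wild type library 4 highest.

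The other 27 synthetase genes varied less among the wild type libraries. Over all 8 libraries their ratio of highest to lowest had a median of 1.28 and a range of 1.13 to 3.17. The 3.17 belonged to Vars2, the gene that picked the family, and exceeded the ratios of Yars2, Cars2 and Iars2. The median SD within wild type was 0.140 for the 36 genes and 0.212 for 8935 protein-coding genes with at least 5 CPM. Across the 36 genes, Spearman's rho of mean CPM with that SD was -0.607, beside -0.300 across the 8935 genes, so the less abundant synthetases varied more. Genes are not independent replicates and share the libraries. Wild type library 2 was the lowest of all 8 libraries for 10 of 16 mitochondrial and 5 of 20 cytosolic genes, and the highest for 7 of the cytosolic genes. Labelled knockout library 1 was the highest of the 8 for 8 of 16 mitochondrial and 2 of 20 cytosolic genes.

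**Figure D4:**
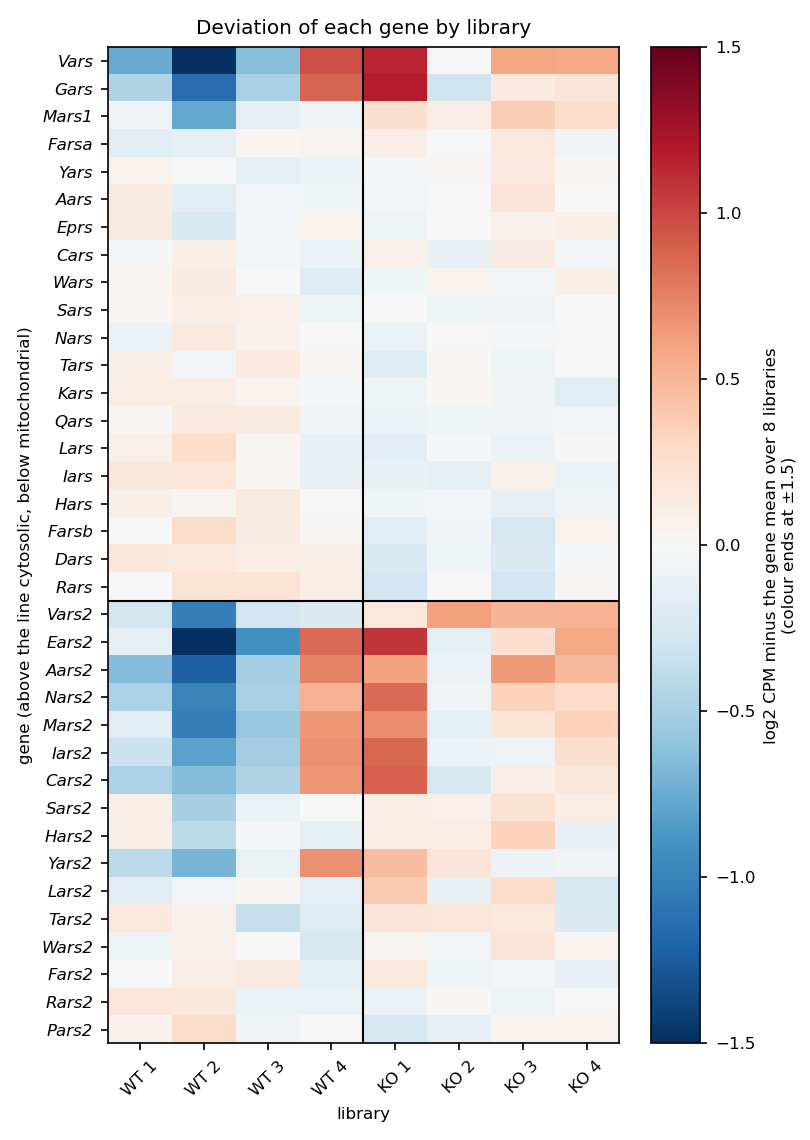
Deviation of each synthetase gene's log2 CPM from its mean over the 8 libraries (red, above; blue, below; colour ends at ±1.5), cytosolic genes above the horizontal line and mitochondrial genes below, with the fold change falling from top to bottom within each. Vars, Gars and 7 mitochondrial genes are blue in wild type libraries 1 to 3, darkest in library 2, and red in wild type library 4 and labelled knockout library 1.

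As a measure of how far the genes moved together, the median Pearson's r of log2 CPM over the 8 libraries was 0.122 over the 190 cytosolic pairs and 0.225 over the 120 mitochondrial pairs. It was -0.192 between compartments and -0.0188 over pairs of 10300 genes with at least 5 CPM. Taken from the group means instead, the medians were 0.0348, 0.0821 and -0.182. Pairs across the compartments thus had a median r below 0, and all pairs share the same 8 libraries.

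Genes that work with the synthetases were read from the same fit. In the multi-synthetase complex, 2 of 11 genes were above 0 (Mars1 and Eprs) and 0 were called, with a median log2 fold change of -0.14. Its scaffold genes Aimp1, Aimp2 and Eef1e1 had values of -0.24 ± 0.14, -0.15 ± 0.11 and -0.11 ± 0.10 (SE). Of the 7 genes of proofreading and related enzymes, 3 were above 0 and 0 called, with a median of -0.05 and Dtd2 (a proofreading deacylase) at 0.57 ± 0.33. Among the 5 cytosolic elongation factor genes, 1 was above 0 and 0 called, with Eef1a1, the factor that brings charged tRNA to the ribosome, at -0.19 ± 0.07 and Eef1b2, a subunit of its exchange factor, at -0.23 ± 0.11.

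Mitochondria make their glutaminyl-tRNA by amidation of a mischarged tRNA, with an enzyme of 3 subunits, Gatb, Gatc and Qrsl1, and they formylate the initiator methionine with Mtfmt. Mtfmt gave 22.5, 13.2, 22.9 and 29.5 CPM in wild type against 32.1, 28.9, 35.3 and 32.6 CPM in the CD25_KO-labelled libraries, overlapping only through wild type library 4. Its log2 fold change was 0.55 ± 0.22 (SE), while Gatb, Gatc and Qrsl1 were at -0.07 ± 0.15, 0.25 ± 0.21 and 0.00 ± 0.09. None of these 4 was called. Of 9 mitochondrial translation factors 4 were above 0 and 0 called, with Tufm, the mitochondrial elongation factor Tu, at 0.31 ± 0.14 and Gfm1, an elongation factor G, at 0.25 ± 0.17.

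Transcription and maturation of tRNA were read next, and no gene of either list was called. Of the 18 tested tRNA maturation genes 11 were above 0 and 0 called, with a median of 0.28, Trmu (which modifies mitochondrial tRNA) at 0.55 ± 0.19 and Clp1 (an RNA kinase of the splicing endonuclease) at -0.19 ± 0.08. Of the 12 genes of RNA polymerase III and its factors, which transcribe tRNA genes, 9 were above 0 and 0 called. Their median was 0.13, with the subunit gene Polr3d at 0.91 ± 0.28.

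Uncharged tRNA is sensed by a kinase that raises Atf4 protein, and Atf4 acts with C/EBP factors on a composite element in its targets. Of the 20 tested genes of this amino acid response 10 were above 0 and 10 below, 0 were called, and the median was 0.05. Atf4 gave 201, 157, 201 and 220 CPM in wild type against 216, 227, 234 and 219 CPM in the CD25_KO-labelled libraries, a log2 fold change of 0.20 ± 0.11 (SE). Asns, the asparagine synthetase gene and a target of Atf4, gave 3.88, 1.87, 1.76 and 1.86 CPM against 1.69, 1.30, 1.60 and 1.28 CPM, and the log2 fold change was -0.67 ± 0.30 (SE), so Atf4 and Asns lay on opposite sides of 0. Psph, of serine synthesis, was at -0.34 ± 0.11 and Ppp1r15a, a phosphatase subunit that reverses the kinase, at 1.44 ± 0.37. The immediate early genes, which handling of cells can raise, summed to 89.3 to 269 CPM in wild type against 173 to 599 CPM in the CD25_KO-labelled libraries, and their part in the value of Ppp1r15a was not tested.

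The element was looked for in RefSeq promoter windows (GRCm38.p6, 250 bases before to 50 after the transcript start), which were at hand for 27 of the 36 genes. The letters searched on both strands were TGATGNAA. They were found in 5 of 13 cytosolic genes (38.5%), in 0 of 14 mitochondrial genes and in 4.51% of 27025 genes with a window. A match is printed for each of the 5 genes because, among these windows, they were found in cytosolic genes alone; each is shown in 30 bases, 5′ to 3′ on the strand of the gene, with the match in capitals. In Aars, Gars, Iars and Tars the letters lie on the opposite strand and read as their reverse complement, and in Yars they read as written.

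Aars, chr8:111033840-111033869 (plus strand): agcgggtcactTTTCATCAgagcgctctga

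Gars, chr6:55037960-55037989 (plus strand): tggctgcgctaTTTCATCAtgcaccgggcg

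Iars, chr13:49682126-49682155 (plus strand): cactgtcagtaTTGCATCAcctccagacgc

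Tars, chr15:11399655-11399684 (minus strand): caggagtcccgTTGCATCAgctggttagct

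Yars, chr4:129189895-129189924 (plus strand): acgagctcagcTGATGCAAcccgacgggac

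The printed matches of Iars, Tars and Yars share the letters TTGCATCA or their reverse complement, while those of Aars and Gars have TTTCATCA. Aars has another match in its window, not printed, at position -112 from the transcript start, and it reads TTGCATCA. The 5 genes with a match had log2 fold changes between -0.14 and 0.51 with a median of 0.07, 3 of them above 0. The 8 cytosolic genes with a window and no match had a median of -0.09, also with 3 above 0. The E-box CACGTG, bound by Myc among others, was found in 4 of the 13 cytosolic genes (Aars, Farsb, Iars and Tars), in 1 of the 14 mitochondrial genes (Ears2) and in 8.09% of all genes with a window. The NRF1 motif was in 0 of the 27 and in 1.07% of all, and the core of the interferon response element was in Qars alone and in 3.99% of all. A match is a description of letters, not a measured site.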

How the data were processed

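The values are whole fragment counts per gene, deposited by the authors. Fragments were counted over GENCODE M25 exons by featureCounts 2.0.1, multi-mapping ones included, per the file headers, which record no strand option. Overlapping genes therefore cannot be told apart. The submitters' processing notes name the mm10 build, GATK 4.1.9.0 and STAR 2.7.7a. The deposited table also gives summed exon lengths per the file headers (unit: other), used for TPM. There were 0 columns of other samples. GENCODE M21 (GRCm38, the build of mm10) supplied names and positions. It named 55227 genes and left 260 unnamed.

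Counts were filtered with filterByExpr, scaled by TMM and tested with edgeR 4.0.16 in R 4.3.3 (glmQLFit, robust, and glmQLFTest, two-sided, genotype only), with Benjamini-Hochberg adjustment over 18884 genes at 0.05. SE came from the quasi-likelihood F. CPM are on TMM-scaled library sizes. Among genes with at least 5 CPM the SE had a median of 0.157. No library was a copy of another (chi-square of counts per degree of freedom at least 29.5 within groups). The labels do not say that the samples came from separate mice. Y-linked expression differed between libraries within each group, so the libraries of a group cannot all be repeats of the same cells. Which of them came from separate mice is not known. The p-values then measure the spread of these samples alone, possibly in part a technical one. Tested on simulated data for this comparison (18248 genes), calls were made for 1.82% of 55 genes at a true 1.5-fold change, for 36.6% of 71 at 2-fold, for 76.1% of 67 at 4-fold and for 0.0166% of 18055 without one.

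The family, the gene lists and the alternatives were chosen with earlier results of these data known. Genes given in every library were Vars2, Vars, the 5 other genes of each compartment with the smallest unadjusted p, and those of highest and lowest TPM; of each pathway list, the 2 genes with the smallest unadjusted p, with Atf4, Asns, the scaffold genes and the mitochondrial charging partners. The 23 alternatives covered scaling, filter, tool (DESeq2 1.42.0, limma 3.58.1 voom), robust estimation, a replicate block, left-out libraries, a term for Y-linked expression and a GC trend removed per library. A planned comparison of protein sequences was not made. A few items that this rule would name are not reported here.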

Additional observations from a re-analysis of the deposited data

Results flagged for a closer look

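In groups of 4 libraries, 1 library stood far from the other 3 in 4 of 72 groups checked (each of the 36 genes in each genotype); chance alone marks about 1 in 20. Mars1 in wild type library 2 had 52.8 CPM, where the other wild type libraries had 82.9 to 86.8 CPM. Vars2 in the same library had 7.05 CPM, where the others had 11.9 to 12.5 CPM. Cars2, the mitochondrial cysteinyl enzyme, had 11.1 CPM in wild type library 4, where the others had 4.43 to 5.11 CPM. Tars2, the mitochondrial threonyl enzyme, had 34.9 CPM in labelled knockout library 4, where the others had 45.2 to 46.6 CPM.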

How the results depend on the processing

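The count of synthetase genes called was 0 in 20 of 23 alternatives. It was 2 without wild type library 4. It was 11, Vars2 among them, with a term for Y-linked expression and without that library (10 higher, beside 2324 of all 3112 called genes). It was 9, Vars2 not among them, where the GC trend was taken out too (2816 of all genes, 14.4%, and a mitochondrial median of 0.506). It was 0 with the GC trend removed and that library left out but no such term (smallest adjusted p 0.0561). Leaving out each library gave 0 to 2 calls, a cytosolic median of -0.085 to -0.002 and a mitochondrial median of 0.144 to 0.409. Without labelled knockout libraries 1 and 3 the mitochondrial median was 0.093. The cytosolic median was -0.16 with upper quartile factors, where the median of all genes was -0.09. Across the alternatives both medians kept their sign. The cause of these shifts was not tested. The labels do not say whether the replicate numbers pair the samples. Deviations of same-numbered libraries had r from -0.033 to 0.636, and those of differently numbered libraries had r from -0.656 to 0.645. A replicate block called 0 genes, with medians of -0.06 and 0.26. Of 828 values of single genes under the alternatives, 803 moved by less than the spread between libraries and 25 by more. Vars2 ranged from 0.664 to 1.004, Vars from 0.53 to 1.83. Among small fold changes Aars, Cars, Eprs, Fars2, Lars2, Nars, Sars2, Wars and Yars changed sign under at least 1 alternative. In the simulated data, with 4 libraries a group, 1.82% of genes were called at 1.5-fold and 36.6% at 2-fold. Those genes were drawn from all filtered genes, with noise independent between genes. The synthetase genes had a lower median SD within wild type than protein-coding genes at large, so these shares need not hold for them.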
